A study of Danio rerio with 12 samples.

Results

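Genes of the tricarboxylic acid (TCA) cycle and of the pyruvate dehydrogenase complex were followed in 24-hour zebrafish embryos whose fathers had been fed or starved. The members were chosen by name from a list of 29 symbols, and 26 of them were among the 13680 genes of the deposited table. The symbols sdhda, mdh1b and pdha1b were not among its listed genes and are not analysed here. Several fed and several starved males gave the sperm, the mothers were fed wild-type fish, and fertilisation was in vitro. All embryos carry the AB genotype, a laboratory strain, and were taken at 24 hours post fertilisation, with 1 to 3 whole embryos of a clutch in a library. Each father group had 6 libraries. The sources used here do not give the length of the starvation, the age of the fish or the father behind each library. Each fed library shares its description code with the starved library of the same number, and replicates 5 and 6 of both groups share one code. P-values therefore measure the spread between these libraries, some of which may share a father.

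Pyruvate dehydrogenase turns pyruvate into acetyl-CoA inside mitochondria. The TCA cycle then joins the acetyl group to oxaloacetate and oxidises it stepwise, handing electrons to the respiratory chain. Succinate dehydrogenase belongs to both, since it is a cycle enzyme and also respiratory complex II. Pyruvate dehydrogenase and oxoglutarate dehydrogenase share one plan: a decarboxylase, a lipoate-carrying acyltransferase core and the dihydrolipoamide dehydrogenase that both complexes use. At this age zebrafish embryos move and their hearts beat, and the yolk provides the fuel.

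Libraries were made with a kit that reads from the 3' end of polyadenylated RNA, which yields about the same reads from long and short transcripts, and levels of different genes were compared without a length correction. Values below are normalised read counts, that is reads divided by a size factor of each library, in which 1 read is worth 0.234 to 0.374. Libraries held 2950739 to 3934765 reads over the listed genes. Fed replicate 4, fed replicate 5 and starved replicate 4 stood apart in tissue markers. The summed value of 27 skeletal muscle markers (of 28 listed) was 6594, 8672 and 13169 in these and 20295 to 30704 in the other libraries, and that of 8 lens markers (of 10) was 26.8, 67.0 and 34.3 against 156 to 371. The summed value of 19 yolk syncytial layer markers (of 20) was 16653, 19371 and 13611 against 3770 to 12574. By father group the muscle sum ran from 6594 to 30704 (fed) and 13169 to 30410 (starved), with 24 of 27 genes higher on average in the starved group (median log2 difference 0.56). The same ranges were, for the yolk sum, 7375 to 19371 and 3770 to 13611, with all 19 genes lower (median -0.47). For the lens sum they were 26.8 to 371 and 34.3 to 306, with 6 of 8 genes higher (median 0.34), and for 6 heart markers (of 7) 499 to 4331 and 2177 to 4679, with 2 higher and 4 lower (median -0.27). The gene ttn.2 was listed for both muscle and heart. Like the muscle sum, the heart sum was lowest in fed replicates 4 and 5 (499 and 885). A sum is carried by its most abundant genes. With each heart gene weighted alike (mean log2 deviation from the gene mean), these libraries were at -0.47 and 0.23. The lowest by that measure was starved replicate 5 (-0.51). None of the muscle or yolk markers was at 0 in any library, while 3 lens genes and 1 of 6 heart genes had values at 0. In bulk samples, fewer cells of a type and less RNA per cell cannot be told apart.

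Mean values were lower in the starved group for sdhc, which encodes a membrane anchor of succinate dehydrogenase, for dlst, the acyltransferase core of oxoglutarate dehydrogenase, and for sdhdb, the other membrane anchor. Mean values of the 4 most abundant members, suclg1, idh2, cs and ogdha, differed little between the groups (log2 differences from -0.09 to 0.07). Log2 differences of the remaining members ran from -0.58 (dlat) to 0.36 (pdhx). No member passed the test over all genes. The main limma fit used log2(value + 1) and Benjamini-Hochberg adjustment, and left replicate number and description code out. In it 0 of 26 members and 0 of 13680 genes (0%) passed an adjusted threshold of 0.05. The smallest adjusted p of a member was 0.807, for sdhc. Once limma accounted for the replicate number, that of sdhc fell to 0.0679, and for the description code to 0.292. Over all genes 39 and 1 then passed, none of them a member. With the replicate number, 5 members had an unadjusted p below 0.05, namely sdhc, dlst, sdhdb, dlat and suclg2 (background 1260 of 13680 genes). With the description code there were 4, the same without suclg2 (background 1008 of 13680 genes). All of these members were lower in offspring of starved fathers. In the main fit 3 members had an unadjusted p below 0.05, all lower in offspring of starved fathers. The background over all genes is 5.54% in either direction, 3.44% in the lower and 2.11% in the higher one. Count tests on whole reads, which also left replicate number and description code out, called 0 members and 0 genes. At an unadjusted p below 0.05 each had 1 member, sdhc, where the background is 4.74% with edgeR and 5.51% with DESeq2. No count test with a block was run. The members at an unadjusted p below 0.05 changed with the libraries left out. In limma fits they were sdhc and dlst, both lower, without fed replicates 4 and 5 (background 5.52%), and sdhc, lower, and mdh1ab, higher, without starved replicate 3 (background 4.99%). Without starved replicates 3 and 6 none of the 3 lower members was left, and the 2 members below 0.05 were cs and mdh1ab, both higher in offspring of starved fathers (background 5.29%). This pair of libraries was left out after the values were seen. It holds the lowest starved-group values of cs and mdh1ab, so a higher starved mean follows from that choice. Lower log2 means were seen for 16 members and higher ones for 10, against a background of 52% lower over all genes. The median log2 difference was -0.05 over the members and -0.01 over all genes. For none of the members were the groups free of overlap, against a background of 0.234%.

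**Figure D1:**
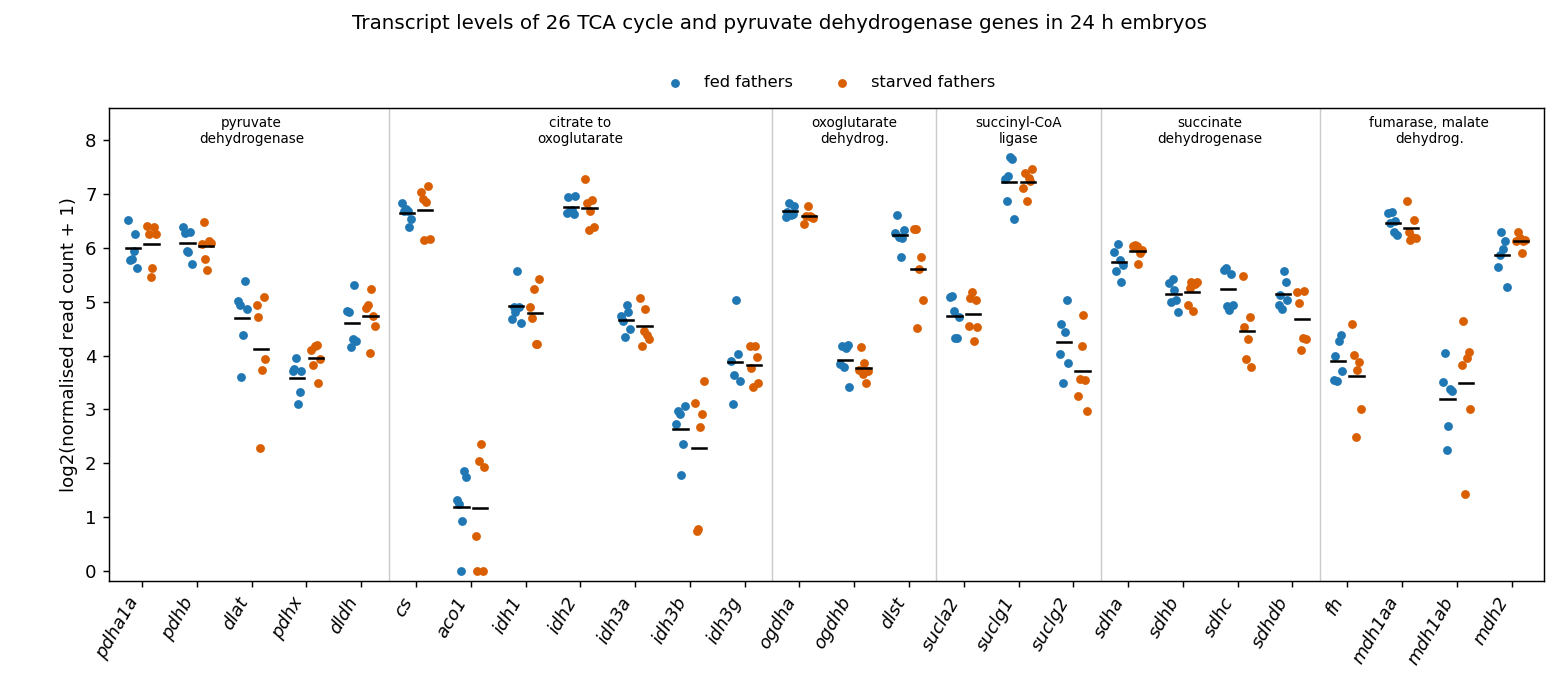
Normalised read count on a log2 scale (1 added) of each of the 26 members, with 6 libraries of offspring of fed fathers (blue) and 6 of starved fathers (orange) as points, and the mean of the log2 values as a black bar. Levels run from suclg1, with a mean of 153 over the 12 libraries, down to aco1 with 1.61, and the groups overlap for every member.

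Levels of the members differed far more between genes than between father groups. The most abundant was suclg1, with a mean value of 153 over 12 libraries, followed by idh2 (108), cs (104), ogdha (98.8) and mdh1aa (85.8). Neighbours in this upper order lay within each other's range over libraries. The least abundant were mdh1ab (10.8), idh3b (5.36) and aco1 (1.61). The iron-responsive cytosolic aconitase gene aco1 rests on 0 to 13 reads per library and was listed at 0 in 3 libraries, namely fed replicate 3 and starved replicates 2 and 5. All members but aco1 had a mean value of at least 5. Summed over the 26 members, the value was 1202 ± 87.0 in the fed group and 1159 ± 150 in the starved group (SD, n = 6 each), or 0.166% to 0.226% of all values without the most abundant gene. The difference of -43.3 was smaller than the spread between libraries, and without starved replicate 3, the library with the lowest sum (949), it was -1.32.

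**Figure D2:**
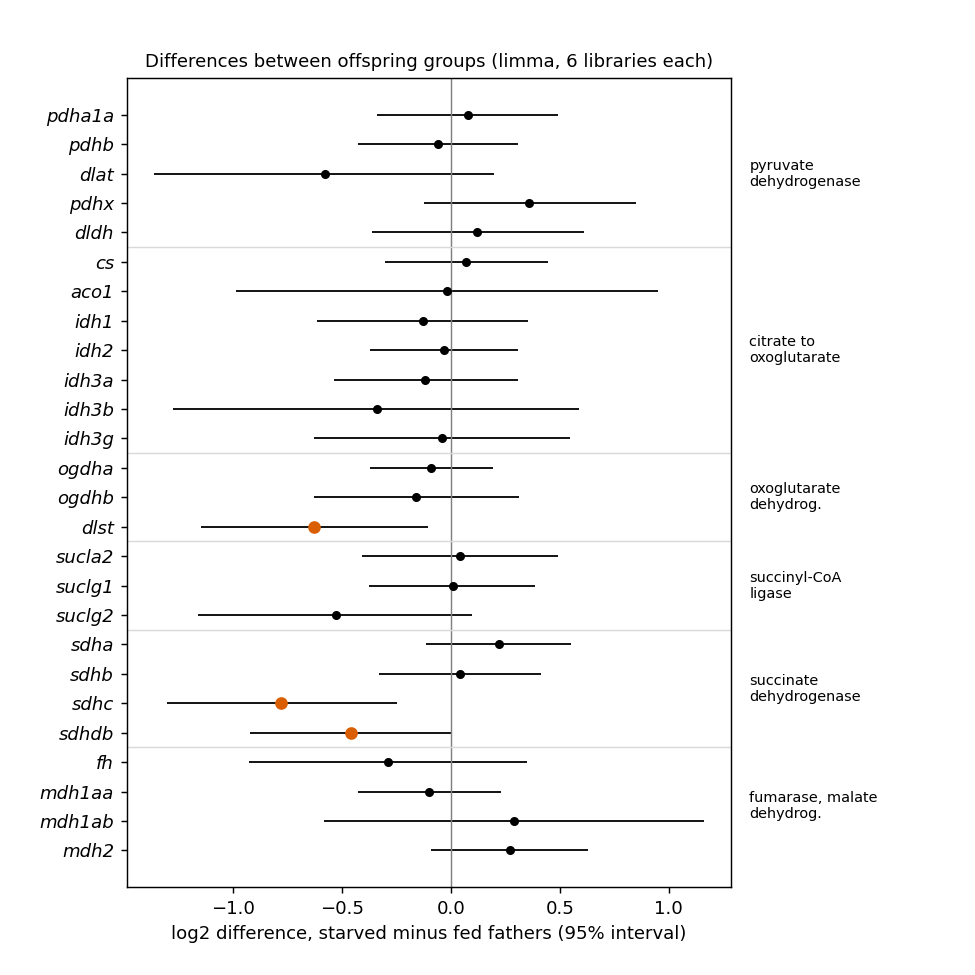
Log2 difference between offspring of starved and of fed fathers for each member, with the limma 95% interval, from 6 libraries per group. Orange points are the 3 members with an unadjusted p below 0.05 (sdhc, dlst and sdhdb), of which none passed after adjustment over all genes.

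In the pyruvate dehydrogenase complex the decarboxylase genes were level between groups while the acyltransferase gene dlat had a lower mean. The beta subunit gene pdhb (ENSDARG00000021346, chromosome 22, bases 10201826 to 10212502, GRCz11) had the highest level of the complex. Its values were 83.2, 76.8, 60.3, 59.6, 77.5 and 50.8 in fed replicates 1 to 6 and 66.5, 88.1, 54.5, 47.2, 69.3 and 67.5 in starved replicates 1 to 6. The groups overlapped over most of their range, and the log2 difference was -0.06 (95% interval -0.43 to 0.31). The alpha subunit gene pdha1a had a mean of 66.2, next to the 66.8 of pdhb, and a log2 difference of 0.08 ± 0.20 (SE). The gene dlat (chromosome 21, bases 23019372 to 23035120) was named after its values were seen, since it had the widest range in the complex as a fold, 10.6 from lowest to highest. Its values were 31.1, 29.9, 11.1, 19.9, 40.8 and 28.2 in fed replicates 1 to 6 and 29.8, 25.4, 3.86, 12.3, 32.9 and 14.3 in starved replicates 1 to 6. The lowest value, in starved replicate 3, rests on 16 reads, and replicate 3 was also the lowest of the fed group. Over the 12 libraries dlat had a coefficient of variation of 46.9%, against 11.4% from counting alone. Its log2 difference of -0.58 ± 0.38 (limma adjusted p = 0.899) shrank to -0.22 without starved replicate 3. The gene pdhx, which encodes the protein that tethers dihydrolipoamide dehydrogenase to the core, was at 11.3 ± 2.57 and 14.7 ± 2.71 (SD, n = 6 each), a log2 difference of 0.36 ± 0.24. Dihydrolipoamide dehydrogenase itself, encoded by dldh, was at 24.4 ± 8.28 and 26.4 ± 7.13.

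Between citrate and oxoglutarate no difference of the 7 members passed the test over all 12 libraries. Citrate synthase, encoded by cs, forms citrate from acetyl-CoA and oxaloacetate and was at 99.3 ± 10.6 in the fed group and 108 ± 30.4 in the starved group (SD, n = 6 each). The spread of cs was wider among the libraries of starved fathers, where values ran from 69.7 in replicate 3 and 71.3 in replicate 6 to 141 in replicate 5. Its log2 difference was 0.07 (limma unadjusted p = 0.694). It was 0.35 (limma unadjusted p = 0.0365) without starved replicates 3 and 6, its lowest libraries, a choice made after the values were seen. The NADP-dependent mitochondrial isocitrate dehydrogenase gene idh2 (ENSDARG00000003795, chromosome 18, bases 26096814 to 26101800) had the highest level of the group. Its values were 98.9, 123, 102, 104, 98.5 and 124 in fed replicates 1 to 6 and 155, 113, 79.6, 102, 118 and 83.2 in starved replicates 1 to 6. Both extremes of idh2 lay among the libraries of starved fathers, and the log2 difference was -0.03 (95% interval -0.37 to 0.31). The NAD-dependent enzyme of the cycle is built from the products of idh3a, idh3b and idh3g. The catalytic subunit gene idh3a was at 24.5 ± 3.76 and 22.9 ± 5.95, and idh3g at 15.1 ± 8.54 and 13.5 ± 3.24. The low gene idh3b had 2 and 3 reads in starved replicates 2 and 3 and reached 45 reads in starved replicate 6, so that its interval ran from -1.28 to 0.59.

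The cytosolic and mitochondrial NADP-dependent enzymes were set against each other within each library. The share of idh1, the cytosolic gene, in the sum of idh1 and idh2 was 21.6 ± 5.16% in the fed group and 21.1 ± 9.01% in the starved group (SD, n = 6 each). The exact permutation test, two-sided, gave p = 0.924 (adjusted over 4 such shares 0.924). It was highest in starved replicate 6 (33.5%), starved replicate 3 (31.5%) and fed replicate 4 (31.0%), and between 12.9% and 22.6% in the other libraries. Values of idh1 itself were 41.8, 36.6 and 46.7 in these 3 libraries and at most 29.1 elsewhere.

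In the oxoglutarate dehydrogenase complex the decarboxylase gene ogdha was the steadiest of all members, while dlst, which encodes the succinyltransferase core, varied widely. Values of ogdha (ENSDARG00000034270, chromosome 8, bases 45762484 to 45838481) were 94.2, 101, 113, 96.7, 98.1 and 108 in fed replicates 1 to 6. In starved replicates 1 to 6 they were 86.4, 95.7, 109, 95.3, 94.7 and 93.0. The coefficient of variation over the 12 libraries was 7.85%, close to the 5.44% that counting alone gives, and the log2 difference was -0.09 (95% interval -0.37 to 0.19). Values of dlst (ENSDARG00000014230, chromosome 17, bases 52524355 to 52553447) were 76.4, 96.9, 72.8, 56.0, 71.9 and 79.5 in fed replicates 1 to 6 and 80.4, 80.5, 21.7, 48.1, 55.9 and 31.8 in starved replicates 1 to 6. Starved replicates 1 and 2 lay in the range of the fed group, and replicates 3, 4 and 6 lay below all of it. Starved replicate 5, at 55.9, lay barely under the lowest fed value of 56.0. The log2 difference of dlst was -0.63 ± 0.25 (SE, 95% interval -1.15 to -0.11, limma unadjusted p = 0.0207, adjusted p = 0.868), and the authors' deposited table gives -0.61 with an FDR of 0.119. Without starved replicate 3 the log2 difference was -0.41 and limma's unadjusted p 0.0727, and without starved replicate 6 they were -0.51 and 0.0613. The paralog ogdhb was at 14.5 ± 3.02 and 12.8 ± 2.25. The share of ogdha in the pair was 87.5 ± 2.76% and 88.2 ± 1.98% (two-sided exact permutation p = 0.615, adjusted 0.82, n = 6 each).

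Succinyl-CoA ligase makes ATP or GTP, depending on which beta subunit joins the shared alpha subunit. The alpha subunit gene suclg1 (ENSDARG00000052712, chromosome 1, bases 43652480 to 43684584) was at 154, 116, 161, 206, 202 and 91.6 in fed replicates 1 to 6 and at 138, 166, 117, 156, 151 and 177 in starved replicates 1 to 6. The fed group held both the highest and the lowest value, and the log2 difference was 0.01 (95% interval -0.37 to 0.38). The ADP-forming beta gene sucla2 was at 26.3 ± 6.47 and 27.1 ± 7.04, and the GDP-forming beta gene suclg2 at 19.1 ± 7.79 and 13.3 ± 7.17 (SD, n = 6 each; log2 difference of suclg2 -0.53 ± 0.30, limma adjusted p = 0.893). In mammals the ADP-forming enzyme prevails in brain and muscle and the GDP-forming enzyme in liver and kidney. The 3 libraries with low muscle and lens markers and high yolk markers had the lowest sucla2 values of all, namely 19.0 and 19.1 (fed replicates 4 and 5) and 18.2 (starved replicate 4), with 22.2 to 35.4 elsewhere. In the same libraries suclg2 was at 20.8, 31.8 and 26.1, and the highest value elsewhere was 23.1. The share of sucla2 in the pair was therefore 47.7%, 37.5% and 41.1% there and 59.3% to 76.6% in the other 9 libraries. By father group it was 58.5 ± 13.4% and 67.9 ± 13.5% (two-sided exact permutation p = 0.236, adjusted 0.645, n = 6 each). The part of tissue make-up in these shares was not tested.

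**Figure D3:**
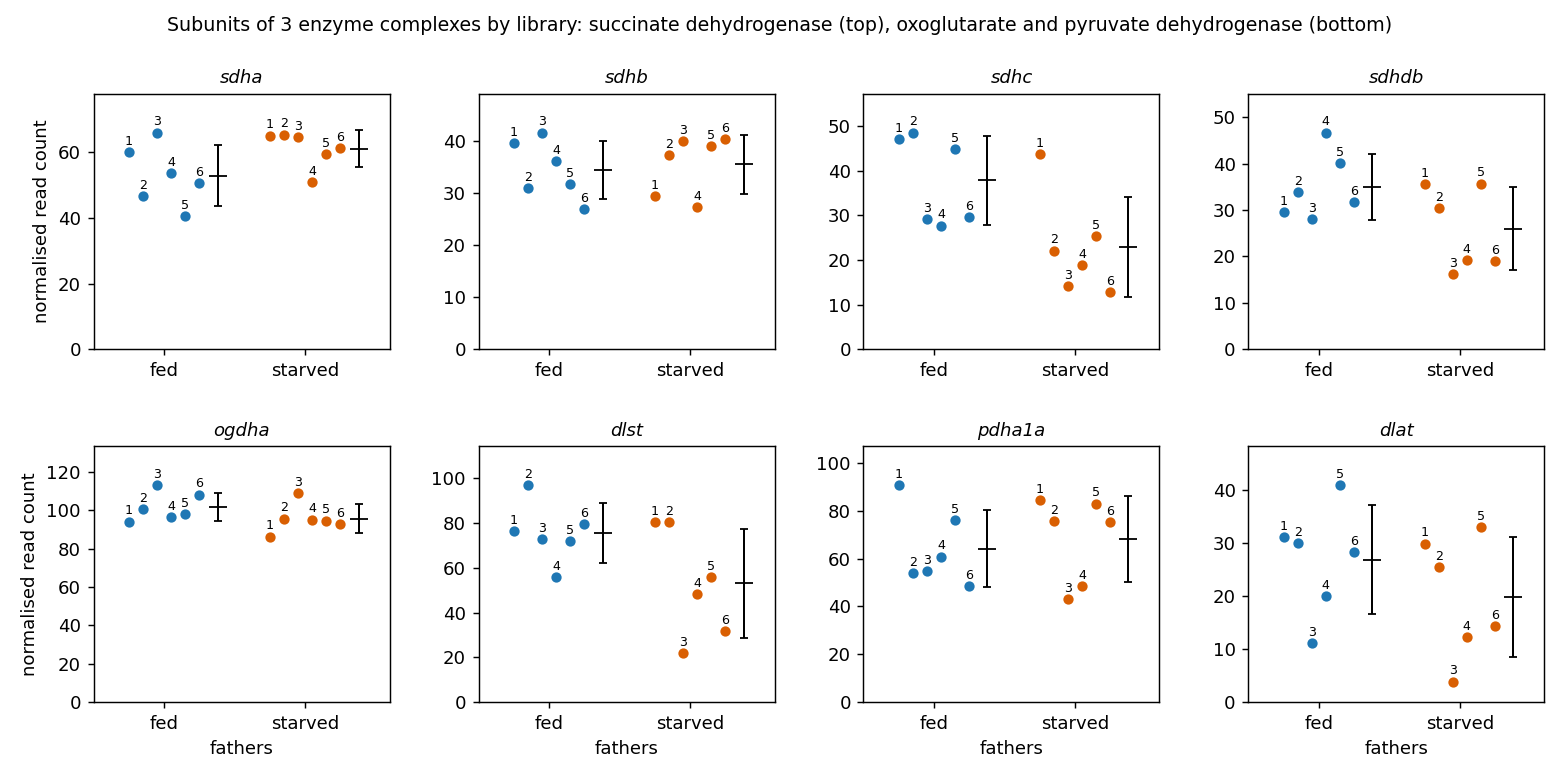
Normalised read count (linear axes from 0) of 4 succinate dehydrogenase subunit genes in the top row and of ogdha, dlst, pdha1a and dlat in the bottom row, with each library as a point marked by its replicate number and the group mean ± SD (n = 6) as a black bar. In starved replicates 3, 4 and 6 the membrane anchor genes sdhc and sdhdb and the acyltransferase gene dlst lie below the range of the fed group. The acyltransferase gene dlat does so in replicate 3 only. In these replicates sdha and sdhb stay within the fed range. The gene pdha1a lies below it in replicate 3 (42.9) and at its lower end in replicate 4 (48.4), and ogdha lies slightly below it in replicate 6 (93.0, lowest fed value 94.2).

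Succinate dehydrogenase has a flavoprotein and an iron-sulfur subunit that face the mitochondrial matrix and 2 small subunits that anchor them in the inner membrane. The anchor genes had lower means in offspring of starved fathers and the matrix genes did not. Values of sdhc (ENSDARG00000038608, chromosome 2, bases 44192652 to 44199840) were 47.1, 48.6, 29.1, 27.7, 44.9 and 29.6 in fed replicates 1 to 6. In starved replicates 1 to 6 they were 43.7, 22.1, 14.2, 18.9, 25.4 and 12.9. Only starved replicate 1 reached into the range of the fed group, and the other 5 libraries lay below its lowest value. These values rest on 55 to 179 reads per library. The group means were 37.8 ± 9.97 and 22.9 ± 11.3 (SD, n = 6 each), and the log2 difference was -0.78 ± 0.25 (SE, 95% interval -1.31 to -0.25, limma unadjusted p = 0.00572, adjusted p = 0.807).

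The authors' deposited table gives sdhc a log2 fold change of -0.79 and an FDR of 0.0458, the only member below 0.05 or 0.1 there, with a background of 0.768% and 1.06% of all genes (0.621% lower at 0.05). Both comparisons used the same 12 libraries. In each of the fits that left out 1 library, the log2 difference of sdhc lay between -0.98 and -0.64 and its unadjusted p (limma) between 0.000392 and 0.0201. It was -0.81 without fed replicates 4 and 5 and with starved replicate 4 kept, all of which stood apart in tissue markers. The part of tissue make-up in the values of sdhc was not tested. The log2 difference of sdhc was -0.48 (limma unadjusted p = 0.0712) without starved replicates 3 and 6, its lowest libraries, a choice made after the values were seen.

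The second anchor gene, sdhdb (ENSDARG00000030139, chromosome 15, bases 21684435 to 21692630), was at 29.6, 33.9, 28.0, 46.7, 40.1 and 31.7 in fed replicates 1 to 6 and at 35.5, 30.4, 16.2, 19.2, 35.7 and 18.9 in starved replicates 1 to 6. Starved replicates 3, 4 and 6 lay below the whole fed group and the other 3 within it. The log2 difference was -0.46 ± 0.22 (SE, 95% interval -0.92 to -0.002, limma unadjusted p = 0.0491, adjusted p = 0.885). Its 2 highest values fell in fed replicates 4 and 5, which are 2 of the 3 libraries with high yolk markers. In the third, starved replicate 4, it was at 19.2, below the whole fed group. Without fed replicates 4 and 5, and with starved replicate 4 kept, the log2 difference was -0.30 (limma unadjusted p = 0.221). The flavoprotein gene sdha (ENSDARG00000016721, chromosome 19, bases 7276060 to 7291733) had the highest level of the complex. Its values were 60.1, 46.7, 66.0, 53.6, 40.4 and 50.5 in fed replicates 1 to 6 and 65.1, 65.4, 64.6, 50.9, 59.4 and 61.2 in starved replicates 1 to 6, with a log2 difference of 0.22 (95% interval -0.12 to 0.55). The iron-sulfur subunit gene sdhb was at 34.6 ± 5.61 and 35.6 ± 5.71.

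Subunit ratios within a library do not depend on its size factor, and they are given as a description since they were chosen after the values were seen. Reads of sdhc per read of sdha came to 0.747 ± 0.28 in the fed group, with a range from 0.442 to 1.11, and to 0.373 ± 0.17 in the starved group, with a range from 0.21 to 0.672 (SD, n = 6 each). In 5 of 6 libraries of starved fathers this ratio lay below the lowest of the fed group. The ratio of sdhdb to sdha was 0.689 ± 0.218 and 0.425 ± 0.137, while that of sdhb to sdha was 0.659 ± 0.081 and 0.583 ± 0.0799. For dlst over ogdha it was 0.744 ± 0.134 and 0.568 ± 0.282, with the lowest ratios, 0.199 and 0.342, in starved replicates 3 and 6. The ratio of pdhb to pdha1a, the partners of the pyruvate decarboxylase, was 1.08 ± 0.178 and 0.988 ± 0.191, with a range from 0.788 in starved replicate 1 to 1.42 in fed replicate 2. Libraries of starved fathers below the fed range numbered 3 for this ratio, as they did for sdhdb over sdha and for dlst over ogdha.

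For the last steps, by fumarase and malate dehydrogenase, no difference passed the test. Cytosolic malate dehydrogenase, part of the shuttle that moves reducing equivalents into mitochondria, is encoded by mdh1aa and mdh1ab. The gene mdh1aa (ENSDARG00000017772, chromosome 1, bases 50968908 to 50990889) was at 99.8, 87.4, 100.2, 77.7, 89.5 and 75.1 in fed replicates 1 to 6 and at 117, 77.9, 69.7, 72.6, 90.6 and 72.2 in starved replicates 1 to 6. Its groups overlapped and the log2 difference was -0.10 (95% interval -0.43 to 0.23). Its duplicate mdh1ab was at 8.91 ± 4.11 and 12.7 ± 7.70 and varied by 57.5% over the 12 libraries, against 16.8% from counting, from 1.69 in starved replicate 3 to 24.1 in starved replicate 2. Its log2 difference was 0.29 over all libraries (limma unadjusted p = 0.499). It was 0.70 (limma unadjusted p = 0.0476) without starved replicate 3 and 0.92 (unadjusted p = 0.0117) without starved replicates 3 and 6. These hold its lowest values in the starved group, so the rise follows from leaving them out, and the pair was chosen after the values were seen. It was 0.10 without fed replicate 3 and 0.06 without starved replicate 2. The share of mdh1aa in the pair was 90.9 ± 3.89% and 87.3 ± 7.32% (two-sided exact permutation p = 0.323, adjusted 0.645, n = 6 each). The mitochondrial enzyme of the cycle, mdh2, was at 58.9 ± 14.3 and 69.4 ± 6.08, with 6 of 6 starved replicates over the fed mean, and its log2 difference was 0.27 ± 0.17 (SE, limma adjusted p = 0.901). Without fed replicate 6, its lowest library at 37.6, it was 0.15. Fumarase, encoded by fh, was at 14.4 ± 4.00 and 12.6 ± 6.51, with its lowest values, 4.58 and 7.01, in starved replicates 3 and 6.

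**Figure D4:**
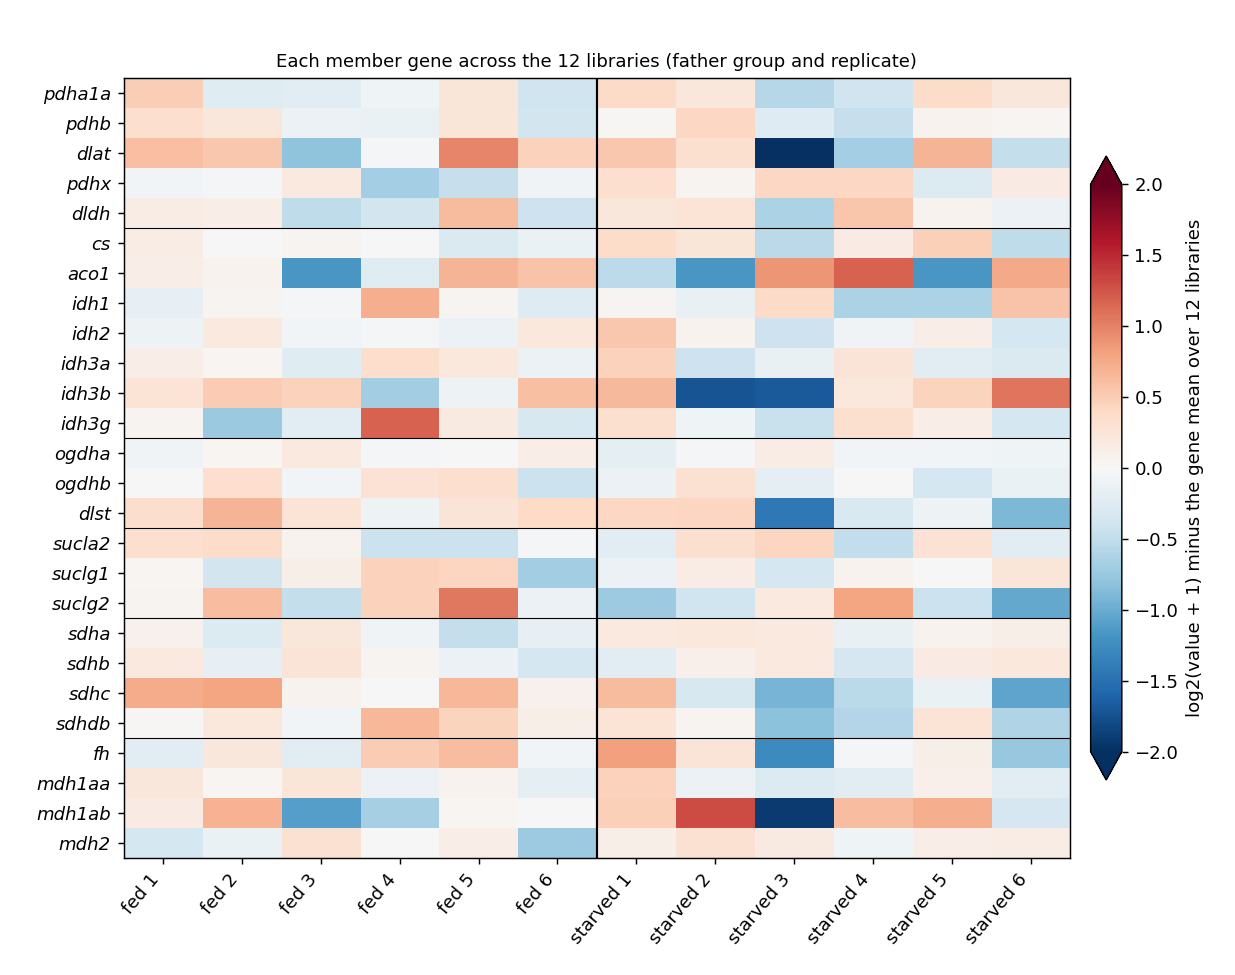
Log2(value + 1) of each member in each library, minus the mean of the gene over the 12 libraries, with red above and blue below that mean and the colours ending at 2 on either side. Starved replicate 3 holds the lowest value of 10 members, among them dlat, dlst, sdhdb, fh and mdh1ab, while ogdha, sdha, sdhb and sucla2 are not low there.

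Across libraries the low values of different members met in starved replicate 3. Of the 25 members with a single lowest library, 10 were lowest there, namely pdha1a, dlat, dldh, cs, idh2, dlst, sdhdb, fh, mdh1aa and mdh1ab. Over 8906 genes with a mean value of at least 5 and a single lowest library, 15.3% were lowest in starved replicate 3, the largest share of the 12 libraries. Other members went against this, since sucla2 had its highest value there (35.4) and ogdha (109), pdhx (17.1) and sdha (64.6) were near the top of their ranges. The most abundant transcript, the large mitochondrial ribosomal RNA, took 27.0% of the values in starved replicate 3, its lowest share, and up to 48.7% elsewhere. The summed value of 9 protein-coding mitochondrial transcripts was lowest in starved replicates 3 and 6 as well, at 8895 and 8951, against 9200 to 12373 in the other libraries. The part of these library differences in the values of sdhc, dlst and dlat was not tested.

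Genes around the cycle were described from a list of 62 symbols, of which 38 were in the table. They cover pyruvate import, control of pyruvate dehydrogenase, assembly factors, exits, refilling reactions and shuttles. No gene of the list passed (limma, adjusted p below 0.05, 0 higher and 0 lower). An unadjusted p below 0.05 was seen for 2 of 38, both lower in offspring of starved fathers. This is near the background over all genes, 5.54% in either direction and 3.44% in the lower one. The number of list genes below 0.05 was 0 with edgeR, with DESeq2 and with replicates 5 and 6 averaged. It was also 0 without fed replicate 2, fed replicate 5, starved replicate 3 or starved replicate 6. The median log2 difference of the 38 was -0.035, with 18 higher and 20 lower. The first of the 2 was me3, which encodes the mitochondrial NADP-dependent malic enzyme that turns malate into pyruvate. It was at 18.4, 22.8, 12.3, 19.3, 24.7 and 18.8 in fed replicates 1 to 6 and at 15.1, 12.9, 3.86, 16.4, 18.5 and 11.5 in starved replicates 1 to 6. Each of the 6 starved replicates was under the fed mean of 19.4, with the lowest again in replicate 3 (log2 difference -0.63 ± 0.29, limma adjusted p = 0.885).

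The second was pdk4, a kinase that switches pyruvate dehydrogenase off and that mammals induce on fasting. Its values were 4.74, 6.52, 5.71, 3.31, 7.49 and 7.63 in fed replicates 1 to 6 and 12.5, 3.63, 2.41, 1.57, 2.06 and 0.23 in starved replicates 1 to 6. Starved replicate 1 had the highest value of all 12 libraries and 4 of the other 5 lay below the whole fed group, on 1 to 44 reads per library (log2 difference -0.91 ± 0.43, limma adjusted p = 0.885). The next by p were sdhaf1, an assembly factor of succinate dehydrogenase, with a log2 difference of 0.74 ± 0.43 (adjusted p = 0.896, limma), and the glutaminase gene glsb with -0.54 ± 0.33 (adjusted p = 0.896, limma). The 95% intervals of sdhaf1 (-0.16 to 1.63, on 1 to 18 reads per library) and glsb (-1.22 to 0.13) include 0. So do those of the remaining assembly factors in the table, sdhaf2, sdhaf3 and sdhaf4, and of the mitochondrial pyruvate carrier genes mpc1 and mpc2.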

How the data were processed

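Polyadenylated RNA of 24 hpf embryos was sequenced as 3' tags (QuantSeq, forward version), per the labels' protocols. STAR, edgeR and the build GRCz11 (danRer11) are named, per the submitters' processing notes. Counting program, strand setting, low-count filter and edgeR design were not given in the sources used here. In a single deposited table the authors give 13680 genes with an expression signal for 12 libraries, their log2 fold change (starved over fed, sign checked) and their FDR, an adjusted p-value. The signal proved to be reads divided by a size factor: 100% of the values lay within 0.03 of a whole read.

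The main test was the one planned for normalised values: limma 3.58.1 (R 4.3.3, variance trend) on log2(value + 1) of all genes with no block, two-sided, with Benjamini-Hochberg adjustment. Low genes change by more than differences on this scale show. Alternatives were edgeR 4.0.16 and DESeq2 1.42.0 (3 adjusted p empty) on recovered reads, both without a block. Further limma fits used other pseudocounts, a minimum mean value, another scaling, blocks and libraries left out. The fit was tested on simulated data. Shares of gene pairs were compared by exact permutation over 924 arrangements. Of 6 planned pairs, 4 had both genes in the table. No reference sequences were used.

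Described in full were members with an unadjusted p below 0.05 or an authors' FDR below 0.1, and the most abundant member of each role. Of the pathway list, the 4 genes with the smallest p are given. The symbol dld was taken off that list because the table describes it as deltaD. Members and lists were chosen with earlier results of these data known. Counting precision is that of the reads given, and covers counting error only. Reads of near-identical duplicates may have been split uncertainly.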

Additional observations from a re-analysis of the deposited data

Results flagged for a closer look

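Each member, each pair share and the summed value were checked for a library far from the other 5 of its group, 62 groups in all, of which chance gives about 5%. There were 3 such values, near the share that chance gives. The value of idh1 was 46.7 in fed replicate 4, with 23.2 to 29.1 in the other libraries of fed fathers. In the same library idh3g was at 31.6, with 7.60 to 15.4 in the others of its group. The share of sucla2 in sucla2 plus suclg2 was 41.1% in starved replicate 4, with 67.4% to 76.6% in the others of its group. Both libraries are among the 3 with low muscle and lens markers and high yolk markers. The part of tissue make-up in these values was not tested.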

How the results depend on the processing

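The count of 0 called members and of 0 called genes in the pathway list held under the 24 alternatives tried, 3 of them (pairs of libraries left out) added after the data were seen. Over all genes, 39 were called with the replicate number as a block and 1 with the description code as a block, none of them a member. Same-numbered fed and starved libraries carry the same description code, whose meaning the labels do not give. The correlation of their deviations from the group means was 0.07 to 0.32, and above 0.1 in 4 of 6 pairs. Of 12 libraries, 10 were closest to their own number. The main test used no block, since the labels do not say that the numbers mark pairs. The value of sdhc, the member with the smallest p in these same data, was lower in the starved library of all 6 same-numbered pairs. The share of all genes with 1 direction in all 6 pairs was not counted. With the replicate block the adjusted p (limma) was 0.0679 for sdhc, 0.168 for dlst, 0.338 for dlat, 0.456 for sdhdb and 0.539 for suclg2. No pair share was called with that block (smallest adjusted p = 0.50). Of the members 14 kept the sign of their log2 difference in every alternative tried, among them sdhc (-0.98 to -0.48), dlst (-0.77 to -0.20), sdhdb (-0.57 to -0.22) and dlat (-0.80 to -0.08). An unadjusted p below 0.05 was kept in 23 of 24 alternatives for sdhc, in 17 for dlst and in 10 for sdhdb. With 1 library left out, the difference in the idh1 share ran from -2.93 to 1.43 percentage points, a change of sign whose cause was not tested, and that of the sucla2 share from 5.29 to 14.8. Over all 24 alternatives the median member difference ran from -0.122 to -0.009, the latter without starved replicates 3 and 6. With 1 library left out this median ran from -0.122 to -0.038. Among the genes named here, depth limits aco1, idh3b, pdk4 and sdhaf1 most, which reach 0 to 2 reads in a library.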
